A study of Mus musculus with 4 samples.

Results

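A set of 10 genes that mark dendritic cells as they mature and leave a tissue was followed in Langerhans cells of mouse ear: Ccr7, Fscn1, Marcks, Cacnb3, Il4i1, Cxcr4, Ccr6, Slamf1, Cd200 and Cd44. They were chosen by symbol, and each of the 10 matched 1 row among the 55487 genes of the deposited count table. Langerhans cells, which are epidermal dendritic cells, were isolated from ears of wild-type mice, and total RNA was sequenced. One group had been treated with Vaseline, the vehicle control, and the other with imiquimod, a Toll-like receptor 7 agonist that gives a psoriasis-like inflammation on skin. Each group had 2 libraries. The strain, age, dose and duration are not given in the sources used here, nor whether replicate libraries are separate animals. The p-values then measure only the spread between these 4 samples, part of which may be technical. The edgeR test used below pools that spread over all genes tested, so its p-values and intervals do not measure the spread of a single gene.

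A Langerhans cell at rest is held among keratinocytes. When it is activated it lets go of its neighbours, remodels its actin skeleton, gains the chemokine receptor CCR7 and follows the CCR7 ligands into lymphatic vessels and on to the draining lymph node. CCR6, which binds CCL20 made by keratinocytes, belongs to the resting state and the entry into epidermis, and CXCR4, which binds CXCL12, takes part in the passage through dermis. Fascin, encoded by Fscn1, bundles actin in the dendrites of mature cells, and IL4I1 is a secreted amino acid oxidase found in mature dendritic cells.

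The libraries held 41998172 (Vaseline 1), 76028955 (Vaseline 2), 14902782 (imiquimod 1) and 20690182 (imiquimod 2) counts. Reads also lay at low density over genes with no known use in skin. This background, the median over 1768 chemosensory receptor genes (Olfr, Vmn1r and Vmn2r) of the counts per kilobase of exon, was 15.9 and 6.94 for the Vaseline libraries and 7.84 and 26.0 for the imiquimod libraries. These values are not scaled to depth, and the library totals ranged over 5.10-fold. Relative to the library total, the background was higher in both imiquimod libraries than in both Vaseline libraries, so it differs with treatment here. Cd207, which encodes langerin and defines these cells, was at 2255 and 6883 CPM (counts scaled to a common library total with TMM factors) with Vaseline and at 1201 and 575 with imiquimod. The keratinocyte keratin Krt14 was at 5560, 7505, 6502 and 1726 CPM in the same order, so RNA of the surrounding epidermis was present in each library. In such bulk samples fewer cells of a type and less RNA per cell cannot be told apart.

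None of the 10 genes passed the test between treatments. The edgeR quasi-likelihood test with Benjamini-Hochberg adjustment over 39439 genes called 0.2% of all genes at an adjusted p under 0.05, and 0 of the 10 genes, whose adjusted p ran from 0.438 to 0.909. At an unadjusted p under 0.05, 0 of the 10 were reached by edgeR, 0 by limma-voom and 2 by DESeq2 (Marcks and Cd44). DESeq2 gave an adjusted p to 6 of the 10 and called 0, where it called 6.48% of all genes it adjusted; limma-voom called 0 and 0.449% of all genes. A negative log2 fold change was fitted for 7 of the 10, against 39.4% of all genes tested and 82.9% of tested genes at a mean of 5 times the background or more. That mean is weighted by Vaseline 2, where the background was lowest, so the bound favours genes high in Vaseline and helps set the shares given for genes above it; Il4i1 met it through Vaseline 2 alone (22.5 times, and at most 2.89 in the other libraries). What follows therefore describes how these genes stood in each library.

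Expressed per exonic kilobase, which allows genes to be compared, the Vaseline means ran from Cd44 at 219 ± 74.9 CPM per kilobase (SD, n = 2) down to Ccr6 at 0.643 ± 0.278. Between them lay Ccr7 at 68.4 ± 51.8, Fscn1 at 56.8 ± 33.8, Marcks at 38.1 ± 24.0, Cxcr4 at 16.6 ± 8.53 and Cacnb3 at 14.7 ± 5.37. Il4i1 (2.29 ± 1.63), Cd200 (1.22 ± 0.322) and Slamf1 (0.861 ± 0.0366) were the other low genes. By these SDs Cd44 stood apart from Ccr7, and Cacnb3 from Il4i1, while the neighbours from Ccr7 to Cacnb3 overlapped. With imiquimod the order was nearly the same: Cd44 had 88.6 ± 53.0, Ccr7 32.9 ± 23.0, Fscn1 29.2 ± 18.5, Marcks 17.9 ± 0.481, Cxcr4 13.4 ± 3.44 and Cacnb3 9.83 ± 2.55 CPM per kilobase (SD, n = 2 each), and the other 4 genes lay between 0.740 and 2.32. Over the 4 libraries 7 of the 10 genes had a mean of at least 5 times the background, and Cd200, Slamf1 and Ccr6 did not.

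**Figure D1:**
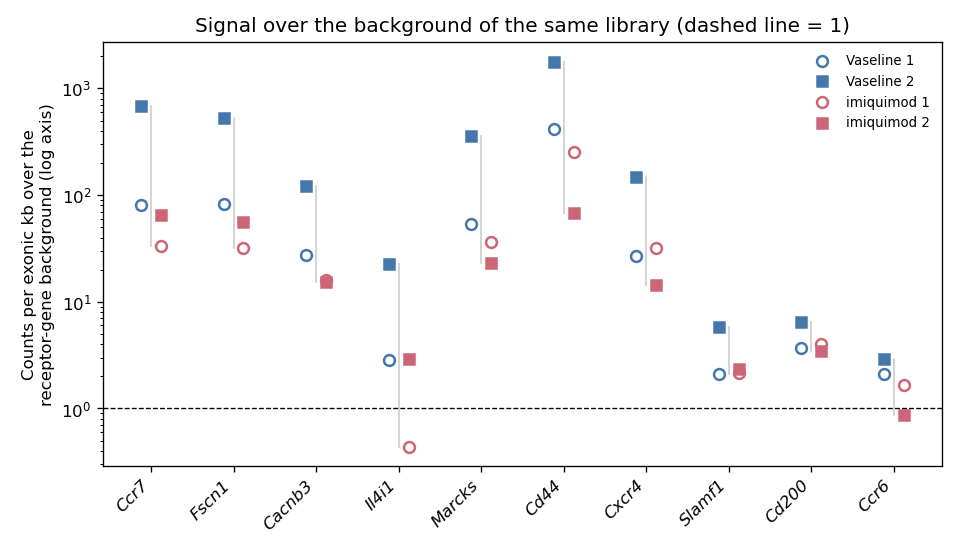
Counts per exonic kilobase divided by the receptor-gene background of the same library, on a log axis, for each of the 10 genes; each point is 1 library (open symbols, replicate 1; filled symbols, replicate 2) and the grey line spans the libraries. Cd44, Ccr7, Fscn1 and Marcks lie far above the dashed line at 1 in each library, while Ccr6 in imiquimod 2 (0.863) and Il4i1 in imiquimod 1 (0.438) lie below it.

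Promoter sequences are shown for 3 genes of high, middle and low level in this order, Fscn1, Cxcr4 and Ccr6. RefSeq start sites on GRCm38.p6 were used; 8 of the 10 genes matched that table, in 10 windows, and Ccr7 and Marcks did not. Each sequence is the stretch before the start site, 5′ to 3′ on the gene's strand, up to 250 bases and without annotated untranslated bases. The capitals mark a TATA box (TATAAA) in Fscn1, a TATA box and GC boxes (GGGCGG) in Cxcr4, and, in the 2 Ccr6 windows, a PU.1 core (GAGGAA, here on the other strand) upstream of the gene start and a kappaB site, the motif of NF-kappaB factors, before an internal start.
Fscn1, chr5:142960105-142960342, plus strand: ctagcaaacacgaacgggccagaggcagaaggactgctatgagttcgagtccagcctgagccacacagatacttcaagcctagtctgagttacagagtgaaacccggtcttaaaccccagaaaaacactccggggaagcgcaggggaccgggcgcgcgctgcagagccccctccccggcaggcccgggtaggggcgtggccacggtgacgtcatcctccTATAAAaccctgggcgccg
Cxcr4, chr1:128592300-128592549, minus strand: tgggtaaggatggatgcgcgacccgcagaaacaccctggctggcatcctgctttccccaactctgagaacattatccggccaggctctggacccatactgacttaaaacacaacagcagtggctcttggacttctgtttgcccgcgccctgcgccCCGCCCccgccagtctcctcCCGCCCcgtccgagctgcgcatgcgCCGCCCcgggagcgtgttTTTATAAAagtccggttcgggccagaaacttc
Ccr6, chr17:8235793-8236042, plus strand: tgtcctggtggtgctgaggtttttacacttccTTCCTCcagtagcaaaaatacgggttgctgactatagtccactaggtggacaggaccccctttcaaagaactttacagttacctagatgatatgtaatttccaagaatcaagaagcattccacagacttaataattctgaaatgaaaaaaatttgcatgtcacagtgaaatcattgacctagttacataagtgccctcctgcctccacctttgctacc
Ccr6, chr17:8242276-8242525, plus strand: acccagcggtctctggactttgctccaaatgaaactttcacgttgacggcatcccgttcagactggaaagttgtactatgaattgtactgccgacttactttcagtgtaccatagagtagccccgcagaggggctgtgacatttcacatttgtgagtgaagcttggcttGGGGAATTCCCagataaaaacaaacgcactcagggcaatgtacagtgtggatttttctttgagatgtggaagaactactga
Both strands were searched. The TATA box of Fscn1 begins 31 bases before the RefSeq start. The last 12 of these bases are annotated as untranslated and are left out of the printed stretch. The TATA box of Cxcr4 gives overlapping matches on both strands at 32 and 30 bases. In the internal Ccr6 window, overlapping matches to the kappaB site begin 81 and 80 bases before the start, and the window at the gene start holds none. Of 32851 promoters of the same length, 12.4% held TATAAA, 32.7% GGGCGG and 9.55% a kappaB site, and among the 10 windows of these genes 2, 4 and 1 did. The PU.1 core GAGGAA was in 3 windows (23.3% of all promoters), and no window held TGANTCA, the AP-1 motif, found in 6.75% of all promoters. The TATA boxes and the kappaB site were all in the 3 genes shown. Cd44, the highest in the order, held neither a TATA box nor a GC box, while the low genes Cd200 and Il4i1 each held a GC box. The motifs are therefore not read against level. A match is only a match of letters.

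Ccr7, the receptor that takes mature dendritic cells to the lymph node (ENSMUSG00000037944; GRCm38 chromosome 11, 99144196 to 99155077, minus strand), had 63.0 CPM in Vaseline 1, 208 in Vaseline 2, 32.9 in imiquimod 1 and 97.2 in imiquimod 2. The groups overlapped: the higher imiquimod library lay above the lower Vaseline library. The replicates of a group differed 3.30-fold with Vaseline and 2.95-fold with imiquimod, more than the 2.08-fold between the group means of 135 ± 102 and 65.0 ± 45.4 (SD, n = 2 each). The log2 fold change of imiquimod over Vaseline was -1.05 (SE 0.72, 95% interval -2.46 to 0.37, adjusted p = 0.450 by edgeR quasi-likelihood).

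Fscn1 (ENSMUSG00000029581; chromosome 5, 142960343 to 142973185, plus strand) stood in the same order, at 99.1 and 243 CPM with Vaseline and 48.5 and 127 with imiquimod. Its groups overlapped as well, with a log2 fold change of -0.96 (SE 0.76, edgeR adjusted p = 0.496). The counts of Fscn1 per 100 counts of Ccr7 were 157 and 117 with Vaseline and 147 and 131 with imiquimod, a range of 1.34-fold. Each gene alone ranged over 6.31-fold (Ccr7) and 5.02-fold (Fscn1). The pair thus held nearly the same proportion in each library while the level of both moved, and this ratio does not depend on any scaling to depth. It was the closest of the ratios to Ccr7 that were taken. The others ranged over 2.75-fold (Cacnb3), 3.07-fold (Marcks), 3.38-fold (Il4i1), 4.42-fold (Cxcr4) and 7.29-fold (Cd44). How many pairs of genes are as close was not counted.

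Cacnb3, the beta3 subunit of voltage-gated calcium channels and a marker of migratory dendritic cells (ENSMUSG00000003352; chromosome 15, 98630840 to 98644529, plus strand), had 43.5 and 74.0 CPM with Vaseline and 32.2 and 46.7 with imiquimod. This is again the order of Ccr7, over a smaller range of 2.30-fold. Its log2 fold change was -0.57 (SE 0.64, edgeR adjusted p = 0.611).

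Il4i1 (ENSMUSG00000074141; chromosome 7, 44816387 to 44840809, plus strand) had 4.62 and 14.0 CPM with Vaseline and 0.894 and 8.93 with imiquimod. The order of libraries was that of Ccr7, and the imiquimod libraries differed 9.98-fold. How many of all genes tested share this order was not counted, so nothing is read from its recurrence here. In imiquimod 1 the level rested on 14 counts (95% Poisson interval 7.65 to 23.5, counting error only) and was 0.438 times the background. The log2 fold change was -0.80 (SE 0.61, edgeR adjusted p = 0.482), and -3.39 without imiquimod 2. Exons of other genes cover 86.3% of its exonic bases, nearly all on the other strand, where Tbc1d17 alone covers 83.9%; whether the counting used strand is not given in the sources used here, so its reads are uncertain. Tbc1d17, named for this overlap, was at 42.6 and 93.7 CPM with Vaseline and 45.5 and 76.8 with imiquimod.

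Mature conventional dendritic cells of the dermis carry Ccr7, Fscn1 and Il4i1 too. The 10 markers of conventional dendritic cells, none of them at 0, summed to 238 and 531 CPM with Vaseline and 117 and 232 with imiquimod. Like Ccr7, this sum was highest in Vaseline 2 and lowest in imiquimod 1. The sums of the monocyte and macrophage markers and of the fibroblast markers were so too, and nothing is read from this likeness. The part of conventional dendritic cells in the values of these genes was not tested.

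**Figure D2:**
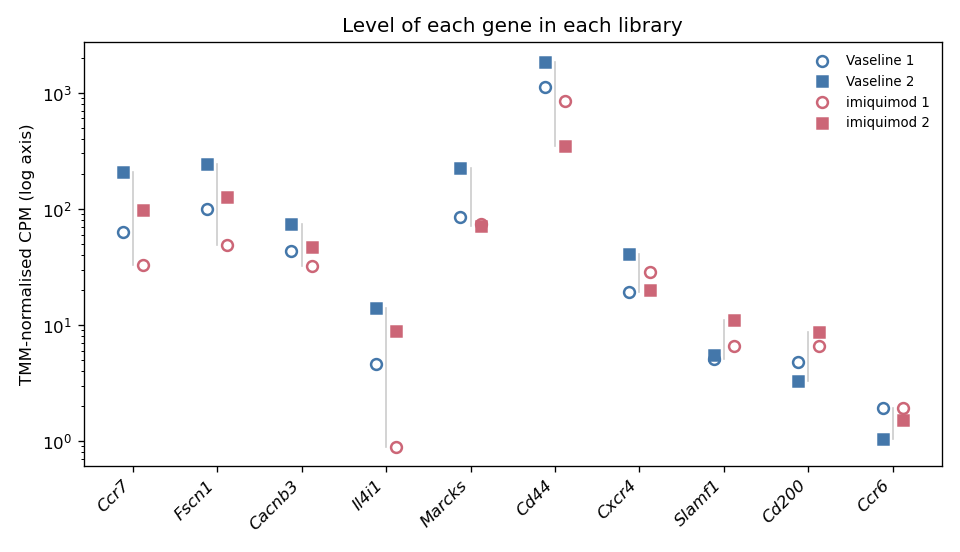
TMM-normalised CPM of the 10 genes on a log axis, 1 point per library (blue, Vaseline; red, imiquimod; open, replicate 1; filled, replicate 2), with a grey line over the range. Ccr7, Fscn1, Cacnb3 and Il4i1 share 1 order, imiquimod 1 below Vaseline 1 below imiquimod 2 below Vaseline 2, and the groups stand apart in Marcks, Cd44, Slamf1 and Cd200. The share of all genes with that order was not counted.

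Marcks, which ties actin to the plasma membrane and is a substrate of protein kinase C (ENSMUSG00000069662; chromosome 10, 37133375 to 37138920, minus strand), had 85.4 and 223 CPM with Vaseline and 73.8 and 71.0 with imiquimod. The groups did not overlap, but the gap between the nearest libraries was small beside the 2.61-fold spread of the Vaseline pair. Its log2 fold change was -1.09 (SE 0.74, 95% interval -2.54 to 0.36, edgeR adjusted p = 0.446).

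Cd44, the receptor for hyaluronan and osteopontin that carries cells through matrix (ENSMUSG00000005087; chromosome 2, 102811141 to 102901665, minus strand), had 1127 and 1845 CPM with Vaseline and 854 and 346 with imiquimod. The groups did not overlap and the fold between their means was 2.48. The log2 fold change was -1.31 with an SE of 1.30 (edgeR adjusted p = 0.569). Keratinocytes also carry CD44. The 12 keratinocyte markers summed to 21795 and 24817 CPM with Vaseline and 21083 and 5675 with imiquimod, none of them at 0. Cd44 was at 20.3 and 24.6 counts per 100 Krt14 counts with Vaseline and 13.1 and 20.0 with imiquimod, still without overlap. This ratio ranged over 1.87-fold against 5.33-fold for Cd44 itself. The range was also smaller per Cd207 count (2.65-fold) and per count of the leukocyte gene Ptprc (2.92-fold). The part of keratinocytes in the Cd44 values was not tested.

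Among all genes tested, 20.9% had both imiquimod libraries below both Vaseline libraries, and among tested genes at 5 times the background or more 50.3% did. Marcks and Cd44 were 2 of 7 such genes here. Since the bound favours genes high in Vaseline, nothing is read from the second share.

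Cxcr4 (ENSMUSG00000045382; chromosome 1, 128588199 to 128592293, minus strand) had 19.1 and 40.9 CPM with Vaseline and 28.6 and 19.8 with imiquimod. Both imiquimod libraries lay between the Vaseline libraries, and the log2 fold change was -0.32 (SE 0.61, edgeR adjusted p = 0.766). Cxcr4 did not follow Ccr7: there were 330 and 508 counts of Ccr7 per 100 of Cxcr4 with Vaseline and 115 and 490 with imiquimod, so that imiquimod 1 stood below the other libraries.

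Slamf1, a self-binding receptor of the SLAM family on activated lymphocytes and mature dendritic cells (ENSMUSG00000015316; chromosome 1, 171767127 to 171801184, plus strand), had 5.14 and 5.46 CPM with Vaseline and 6.64 and 11.0 with imiquimod. Cd200, an inhibitory ligand for the myeloid receptor CD200R (ENSMUSG00000022661; chromosome 16, 45382135 to 45409053, minus strand), had 4.82 and 3.30 with Vaseline and 6.64 and 8.76 with imiquimod. In both genes the groups did not overlap, with log2 fold changes of 0.76 (SE 0.61, edgeR adjusted p = 0.499) and 0.94 (SE 0.62, edgeR adjusted p = 0.438). Both imiquimod libraries lay above both Vaseline libraries in 30.5% of all genes tested, and in 5.56% of those at 5 times the background or more, a bound that neither gene met.

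Divided by the background of its library, which relative to the library total was higher in both imiquimod libraries, neither gene separated the groups. Slamf1 was at 2.11 and 5.80 times the background with Vaseline and 2.15 and 2.36 with imiquimod. Cd200 was at 3.67 and 6.51 times with Vaseline and 3.99 and 3.48 with imiquimod. On this scale other genes did separate: in 6 of the 10 both imiquimod libraries lay below both Vaseline libraries, as in 49.6% of all genes tested, namely Ccr7, Fscn1, Marcks, Cacnb3, Ccr6 and Cd44. Ccr7 was at 80.5 and 687 times the background with Vaseline and 33.2 and 64.8 with imiquimod, and Cacnb3 at 27.5 and 121 with Vaseline and 16.0 and 15.4 with imiquimod, although their CPM overlapped. Whether groups overlapped therefore depended on the scale. Other cells of skin also carry these genes: the 12 T cell markers summed to 399 and 406 CPM with Vaseline and 258 and 214 with imiquimod, the 8 B cell markers to 24.5, 25.6, 24.7 and 45.4 and the 8 endothelial markers to 51.1, 40.4, 43.6 and 72.3 in library order, with none of these markers at 0. Cd3e had 45.6 and 40.7 CPM with Vaseline and 22.2 and 28.4 with imiquimod, and Cd79a at most 2.13 in any library. Their part in the Slamf1 and Cd200 values was not tested.

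Ccr6 (ENSMUSG00000040899; chromosome 17, 8236043 to 8257141, plus strand) had 78, 47, 30 and 52 counts, or 1.95 and 1.03 CPM with Vaseline and 1.92 and 1.52 with imiquimod. The groups overlapped (log2 fold change 0.18, SE 0.83, edgeR adjusted p = 0.909), and the 95% interval of -1.44 to 1.80 holds changes of over 2-fold in either direction. It lay at 2.12, 2.92, 1.65 and 0.863 times the background in library order, so in imiquimod 2 it was not detectable above the reads spread over silent genes. The switch from CCR6 to CCR7 was looked at as a ratio within each library. There were 32.4 and 201 counts of Ccr7 per count of Ccr6 with Vaseline and 17.2 and 64.0 with imiquimod, overlapping groups. The mean log2 difference was -1.28, and in imiquimod 2 it rests on a Ccr6 count that was not above the background. It is given as a value only, since an exact permutation test of 2 against 2 libraries cannot go below p = 0.333. Without Vaseline 2 the difference was 0.03.

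The sign of most fold changes depended on how libraries were scaled. Over all genes tested the median was 0.41 with TMM, 0.16 with RLE and 0.76 with upper-quartile scaling, and 1.30 on library totals. On library totals Ccr7, Fscn1, Cacnb3, Il4i1 and Cxcr4 had 0.10, 0.14, 0.39, 0.36 and 0.56, and with only genes above background fitted they had 0.01, 0.06, 0.33, 0.24 and 0.50, beside a median of 0.08 for all genes of that fit. Marcks and Cd44 were negative, and Slamf1 and Cd200 positive, in each setting that could be fitted. Slamf1 and Cd200 had no value among genes above background. Of all genes tested, 60.6% were positive with TMM, 54.3% with RLE, 69.8% with upper-quartile scaling and 83.3% on library totals. How many genes keep their sign was not counted. For Ccr7 the values under these scalings ran from -1.43 to 0.10. With single libraries left out they ran from -2.04 without imiquimod 2 to 0.01 without Vaseline 2.

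**Figure D3:**
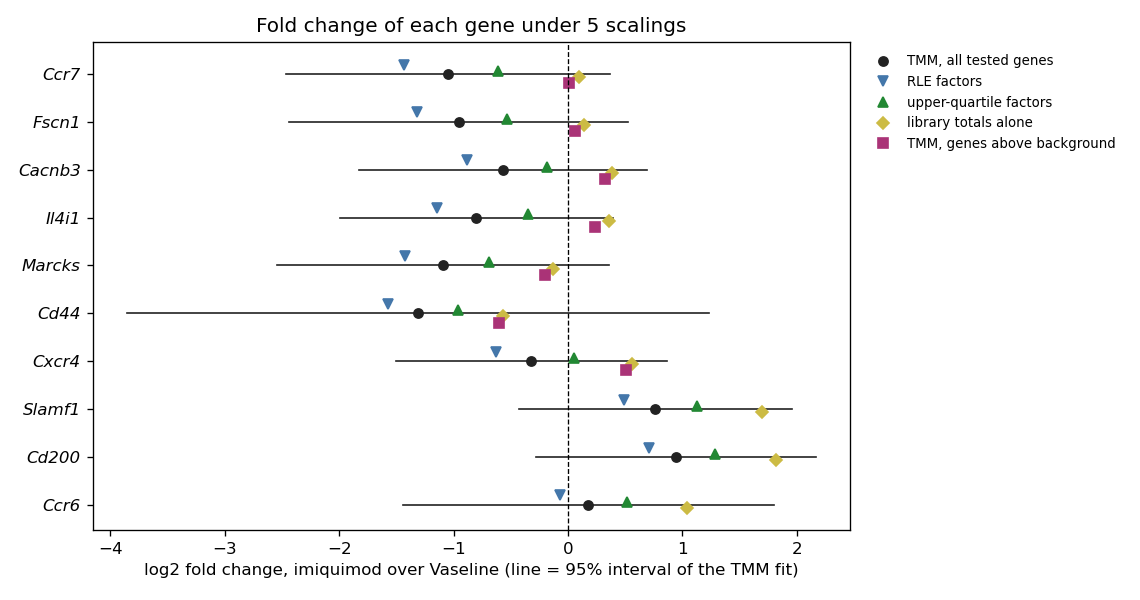
Log2 fold change of imiquimod over Vaseline for each gene under 5 scalings (symbols), with the 95% interval of the TMM fit of all tested genes as a black line. Each interval crosses 0; Ccr7, Fscn1, Cacnb3, Il4i1 and Cxcr4 have symbols on both sides of 0, as does Ccr6, and Slamf1, Cd200 and Ccr6 have no value in the fit of genes above background.

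Ratios to a gene of the same cells avoid scaling. Per 100 counts of Cd207, Ccr7 had 2.80 and 3.02 counts with Vaseline but 2.74 (imiquimod 1) and 16.9 (imiquimod 2) with imiquimod. The first 3 libraries lay within 1.10-fold of each other, and imiquimod 2 was 5.60-fold above the highest of them. Fscn1 had 4.40, 3.53, 4.04 and 22.1 counts per 100 of Cd207, within 1.24-fold and then 5.04-fold higher. Il4i1 had 0.205, 0.204, 0.0745 and 1.55, so that imiquimod 2 again stood alone, 7.59-fold above the next. Its ratios are uncertain, given the overlap with Tbc1d17. In imiquimod 1 it had 14 counts, at 0.438 times the background, and in imiquimod 2 it lay at only 2.89 times. Relative to langerin, Ccr7, Fscn1 and Il4i1 therefore did not separate Vaseline from imiquimod but set imiquimod 2 apart from the other libraries, including its own replicate. This was not particular to them. Imiquimod 2 also lay above the highest other library in Slamf1 (3.46-fold), Cacnb3 (3.03-fold), Cd200 (2.75-fold) and the leukocyte gene Ptprc (2.01-fold), but not in Cd44 or Krt14. The share of all genes with this trait was not counted. In imiquimod 2, where the background was highest, Slamf1 and Cd200 lay at only 2.36 and 3.48 times it.

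In the other 7 genes both imiquimod libraries lay above both Vaseline libraries per Cd207 count, as they did in 83.2% of all genes tested. These 7 include Ccr6, which was below the background in imiquimod 2. Cacnb3 had 1.93 and 1.07 counts per 100 with Vaseline and 2.68 and 8.12 with imiquimod, and Cxcr4 had 0.848 and 0.595 with Vaseline and 2.38 and 3.45 with imiquimod. Cd207 itself was lowest in imiquimod 2, and the keratin Krt14 too was at 247 and 109 counts per 100 of Cd207 with Vaseline and 541 and 300 with imiquimod. A ratio to langerin therefore shows unequal change and not which of the genes changed.

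Ptprc, which encodes the leukocyte antigen CD45, gave a second reference. Per 100 Ptprc counts Ccr7 had 25.5 and 48.5 with Vaseline and 30.7 and 76.7 with imiquimod, overlapping groups, and imiquimod 2 was 1.58-fold above the highest other library. Cacnb3 had 17.6 and 17.3 with Vaseline and 30.1 and 36.8 with imiquimod, and Cxcr4 7.74 and 9.56 with Vaseline and 26.7 and 15.6 with imiquimod. In 6 of the 10 genes (Cacnb3, Cxcr4, Marcks, Ccr6, Slamf1 and Cd200) both imiquimod libraries lay above both Vaseline libraries under either reference; per Ptprc count 72.2% of all genes tested did. Cd44 had 457, 431, 798 and 273 per 100 Ptprc counts, with the imiquimod libraries on both sides of the Vaseline pair. The neutrophil marker S100a8 was at 0.774 and 9.22 CPM with Vaseline and 16.2 and 48.1 with imiquimod, and its list of 10 markers summed to 25.8, 58.2, 76.3 and 271, with Camp at 0 in imiquimod 1. Neutrophils also carry Cxcr4, Cd44 and Ptprc, and their part in these ratios was not tested.

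**Figure D4:**
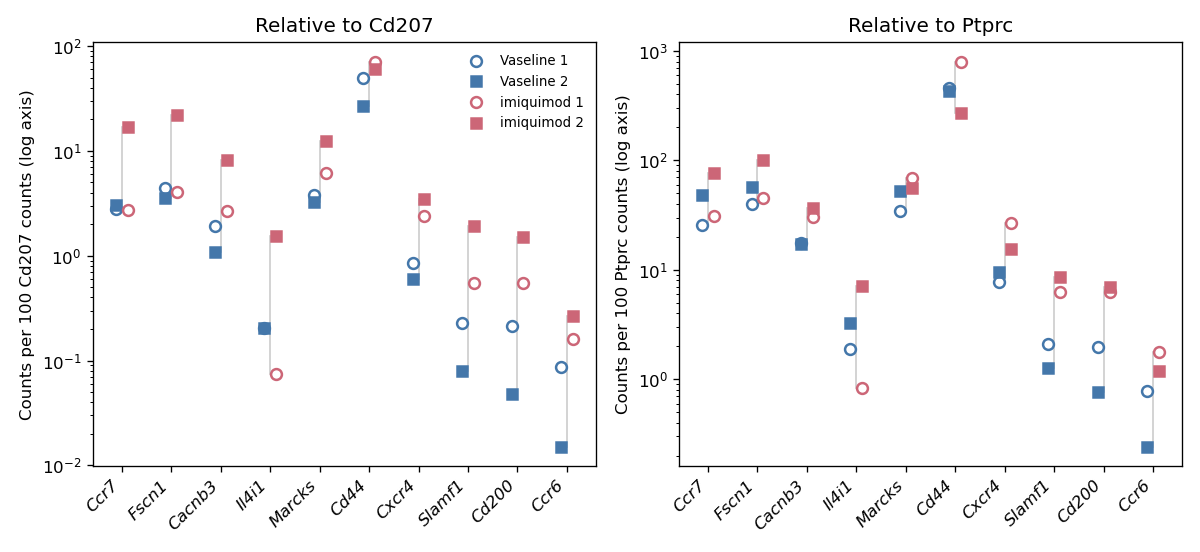
Counts of each of the 10 genes per 100 counts of Cd207 (left) and of Ptprc (right) in each library, on log axes, with symbols for libraries and a grey line over the range. Per Cd207 count, Ccr7, Fscn1 and Il4i1 are highest in imiquimod 2 (16.9, 22.1 and 1.55), as are the other genes except Cd44. Per Ptprc count that gap is smaller (76.7 for Ccr7, against 48.5 in Vaseline 2).

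The ligands of these receptors were read beside them. Ccl20, the ligand of CCR6, had 6.29 and 14.3 CPM with Vaseline and 47.0 and 30.7 with imiquimod (log2 fold change 1.90, SE 0.62, edgeR adjusted p = 0.181). Ccl21a and Ccl19, the ligands of CCR7, which lymphatic vessels and lymph node stroma make, stayed at or under 1.78 and 1.20 CPM, and Ccl19 was too low to be tested. Cxcl12, the ligand of CXCR4, was at 8.79 and 9.53 with Vaseline and 11.9 and 9.60 with imiquimod, and Cd200r1 at most at 2.86. Spp1, which encodes the CD44 ligand osteopontin, had 42.4 and 113 CPM with Vaseline and 16.0 and 9.37 with imiquimod, a log2 fold change of -2.63 (SE 0.69) that missed the threshold (edgeR adjusted p = 0.0537). Sh2d1a, the adaptor of SLAM receptors, lay at 0.447 times the background. Of the 16 ligands and partners 15 were tested, none passed, 9 were positive and 6 negative, with a median of 0.22 against 0.41 for all genes tested; 1 was called higher and 1 lower with Vaseline 1 left out, with upper-quartile scaling, with the stricter filter and with DESeq2 on genes above background, 1 higher on library totals, and 1 lower with DESeq2 and with limma-voom.

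Other genes of dendritic cell maturation had a median near that of the 10 genes. Of 30 such genes none passed the edgeR test, 10 had a positive and 20 a negative log2 fold change, and the median was -0.62, beside -0.69 for the 10 genes and -0.68 for all tested genes at 5 times the background or more. For all genes tested it was 0.41, and the background bound favours genes high in Vaseline. Ccl22, a chemokine of mature dendritic cells, had 207 and 530 CPM with Vaseline and 54.4 and 170 with imiquimod (-1.71, SE 0.88, edgeR adjusted p = 0.368). The costimulatory genes Cd40 and Cd86 had -1.25 (SE 0.69) and -1.55 (SE 0.87), and Apol7c, an apolipoprotein L of dendritic cells, had -2.40 (SE 0.67, edgeR adjusted p = 0.0849). In the fit of genes above background the 28 members present had a median of 0.21, with 17 positive and 11 negative, and on library totals the median of all 30 was 0.33. All genes of these fits had medians of 0.08 and 1.30, so on library totals the list lay below the genes at large. DESeq2 called 3 members lower, where it called 6.48% of all genes it adjusted in either direction. Limma-voom, which called 0.449% of all genes, and the stricter filter called 1 member lower each.

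The general machinery of leukocyte movement was described with 24 genes, of which none passed the edgeR test and 23 had a negative value. DESeq2 called 11 of the 24 lower, and 2 in its fit of genes above background. Their median was -1.52, and it was -0.69 among genes above background and -0.63 on library totals, where the medians of all genes were 0.08 and 1.30. Coro1a, an actin-binding coronin, had 131 and 316 CPM with Vaseline and 33.7 and 54.8 with imiquimod (-2.33, SE 0.80, edgeR adjusted p = 0.206). The actin regulator Was had -1.86, and Dock8, a guanine nucleotide exchange factor, and Elmo1, which works with DOCK proteins, had -2.14 and -1.94. These genes are shared by leukocytes in general. The 16 Langerhans cell markers, all above that bound and all negative, had medians of -2.19, -1.31 and -1.24 in the same settings. DESeq2 called 13 of them lower and 7 in its fit of genes above background, beside the shares of all genes just given. No value of these lists was tested against the 10 genes.

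**Figure D5:**
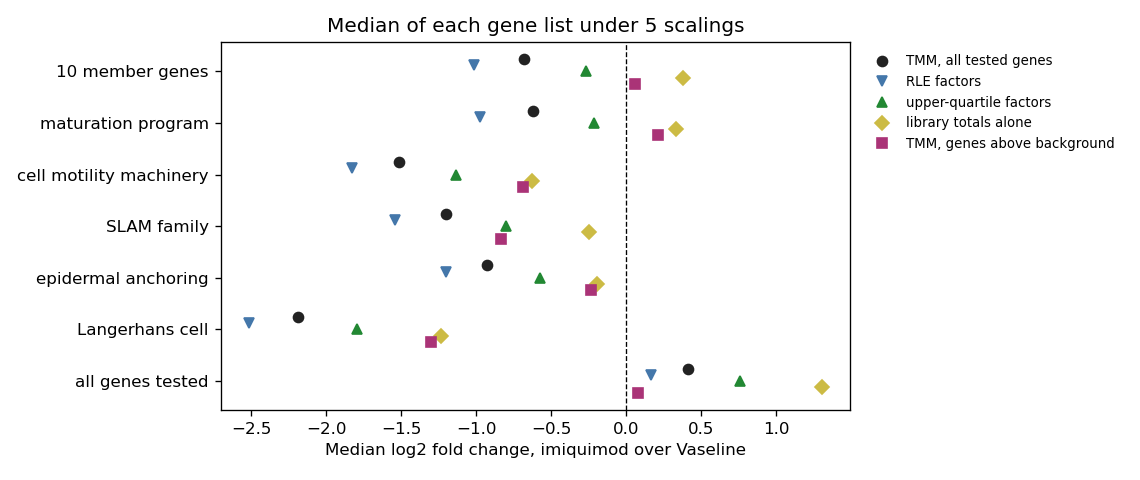
Median log2 fold change of imiquimod over Vaseline for the 10 genes, 5 other gene lists and all genes tested, under 5 scalings (symbols). The 10 genes and the maturation list cross 0 between scalings, while the motility, SLAM, anchoring and Langerhans cell lists stay negative in each scaling shown.

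Relatives of Cacnb3 and Slamf1 were read beside them. Of 14 other calcium channel subunits, not the whole family, none passed the edgeR test and DESeq2 called 1 lower; Cacna1e, the pore of R-type channels, had 430 and 589 CPM with Vaseline and 62.7 and 119 with imiquimod (-2.48, SE 0.96, edgeR adjusted p = 0.278), and Cacnb2, a second beta subunit, had -1.18. Cacna2d3 and Cacna1a, at 1.60 and 1.12, lay at 1.29 and 1.95 times the background. Of 9 SLAM family genes, Slamf1 included, none passed the edgeR test and 6 were negative. Of all genes tested 39.4% were negative, and of those above background 82.9%. DESeq2 called 3 of the family lower, where it called 6.48% of all genes it adjusted in either direction. DESeq2 on genes above background and the stricter filter called 1 lower each. Cd244a had 59.2 and 121 CPM with Vaseline and 18.3 and 18.6 with imiquimod (-2.29, SE 0.69, edgeR adjusted p = 0.125), Cd48, which binds it, -2.06, and Cd84 and Slamf9 -2.06 and -1.45. Slamf1 was positive, as were 2 relatives named after their values were seen, Slamf6 (1.18, SE 0.60) and Slamf8 (0.67, SE 0.77). All 3 lay low, at 3.11, 2.34 and 1.71 times the background, against 56.4 for Cd48; the difference in sign was not tested.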

How the data were processed

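Per the labels' protocols, total RNA of isolated Langerhans cells was extracted with a column kit and 10 to 70 ng was made into libraries with a stranded, low-input total RNA kit. The submitters' processing notes name the tools HISAT2, StringTie, Trimmomatic and SAMtools and the build GRCm38; versions, annotation release and strand setting are not given in the sources used here. The authors deposited counts per gene, whole numbers not scaled to depth. Replicates of a group differed far beyond what counting gives (chi-square per degree of freedom 85.8 for Vaseline and 80.02 for imiquimod, over genes with at least 10 counts in the pair; this minimum was lowered after a first run, whose higher minimum gave larger values).

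Groups were compared with the edgeR 4.0.16 quasi-likelihood test (newer form; TMM factors; filterByExpr with minimum count 10 and minimum total 15; two-sided) and Benjamini-Hochberg adjustment over 39439 genes, with R 4.3.3. The older form, the default of this version, was run first and called fewer genes; the newer form was then taken because its counts match those of an earlier analysis of these data, and none of the 10 genes passed under either. The SE was obtained by dividing the log2 fold change by the root of the F statistic. Intervals used 78878 degrees of freedom, because the test pooled the spread over all genes tested. Exon unions, gene positions and overlaps came from GENCODE vM21, which held 55227 of the 55487 genes. Alternatives were DESeq2 1.42.0, limma 3.58.1 (voom), other scalings and filters, the genes at 5 times background or more alone, each library left out and a replicate block. Simulated data with known changes were also run through the fit. They gave all libraries the same composition, unlike these data, and no value from them is used here. Figures used matplotlib 3.10.9.

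The 10 genes and the 16 other lists (211 symbols in all, each found) were chosen with earlier results of these data known. Named genes were the 10, up to 4 of smallest p per list, any list gene past the threshold, and fixed ligands and markers. Poisson intervals cover counting error only: with no molecular identifiers, PCR copies of 1 molecule are counted separately.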

Additional observations from a re-analysis of the deposited data

How the results depend on the processing

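None of the 10 genes passed under any of the 16 alternatives that could test it, and the lowest adjusted p was 0.117 (Cd44, DESeq2). Slamf1, Cd200 and Ccr6 had no value in the fits of genes above background, and DESeq2 on all tested genes gave these and Il4i1 no adjusted p. The newer quasi-likelihood form, the older form, DESeq2 on genes above background and the crossed block were chosen after the data were seen. Signs turned for 6 of the 10 genes. On library totals and in the fit of genes above background Ccr7 had 0.10 and 0.0083, Fscn1 0.14 and 0.060, Cacnb3 0.39 and 0.33, Il4i1 0.36 and 0.24, and Cxcr4 0.56 and 0.50. DESeq2 on genes above background gave Fscn1 0.026, Cacnb3 0.29, Il4i1 0.19 and Cxcr4 0.47. With 1 library left out, Ccr7 ran from -2.04 to 0.0066, Il4i1 from -3.39 to 0.10, Cxcr4 from -0.87 to 0.31 and Ccr6 from -0.23 to 0.59; the first 3 turned without Vaseline 2, and Ccr6 without Vaseline 2 (-0.23) or imiquimod 1 (-0.025). Ccr6 had -0.066 under RLE scaling and Cxcr4 0.055 under upper-quartile scaling. The mean log2 difference of Ccr7 to Ccr6 was -1.28, and with 1 library left out it ran from -2.60 to 0.035; it turned without Vaseline 2. Subtracting the background left no Ccr6 count in imiquimod 2, so that ratio was not run. The cause of these changes was not tested.

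Over all genes, 25 were called higher and 54 lower. The counts were 17 and 14 under RLE scaling, 41 and 56 under upper-quartile scaling, 8 and 5 on library totals, 6 and 667 with DESeq2, 41 and 136 with limma-voom, 0 and 0 without a filter, 27 and 124 with the stricter filter, 3 and 5 with the older form, 0 and 0 among genes above background, and 97 and 156 there with DESeq2. With 1 library left out they ran from 8 to 2959 higher and from 0 to 317 lower. A replicate block gave 1 higher and 0 lower. The labels do not say that equal numbers pair the libraries, and deviations of equal numbers correlated at -0.43 across all genes tested and at -0.14 across genes above background; the crossed replicate block gave 0 and 0. With 1 library left out, the lone library of a group is assumed to vary like the others.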

Other observations

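Genes listed as holding Langerhans cells in the epidermis appear above only by their median. Of 10 such genes none passed at an edgeR adjusted p under 0.05 over all genes. At an unadjusted edgeR p under 0.05, 0 were positive and 1 negative. DESeq2 called 1 lower, where it called 6.48% of all genes it adjusted in either direction. A negative log2 fold change was fitted for 9, against 39.4% of all genes tested and 82.9% of those above background. The median of this list was -0.93 with TMM factors, -0.23 among genes above background and -0.19 on library totals. All genes had medians of 0.41, 0.08 and 1.30 there. Epcam, an adhesion molecule of Langerhans cells, had 274 and 544 CPM with Vaseline and 238 and 55.8 with imiquimod, so imiquimod 2 stood far below its replicate. Tgfb1, the growth factor that keeps these cells in place, had 113 and 179 CPM with Vaseline and 57.4 and 44.5 with imiquimod, its receptor Tgfbr1 had 67.5, 99.2, 51.1 and 24.8 in library order, and the integrin gene Itgae 43.8, 61.4, 21.4 and 31.4. Itgae is also among the conventional dendritic cell markers summed above, and which cells its RNA came from was not tested. Both imiquimod libraries lay below both Vaseline libraries in Epcam, Tgfb1, Tgfbr1 and Itgae, and in 7 of the 10 genes of the list. The same held in 20.9% of all genes tested and 50.3% of those above background, a bound that favours genes high in Vaseline.

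Markers of other cells, whose sums are not given above, were also summed. The 10 monocyte and macrophage markers had 349 and 457 CPM with Vaseline and 215 and 268 with imiquimod, the 8 fibroblast markers 44.7, 148, 33.5 and 68.8 and the 8 melanocyte markers 54.5, 61.6, 60.2 and 68.3 in library order. Over all lists 3 genes passed the edgeR test: the neutrophil genes Mmp8 (log2 fold change 3.45, adjusted p = 0.00121) and S100a8 (2.69, adjusted p = 0.0193) and the fibroblast collagen Col3a1 (-2.53, adjusted p = 0.0408). Col3a1 had 51.3 CPM in Vaseline 2 against 6.86, 2.55 and 6.98 in Vaseline 1 and the imiquimod libraries, so its groups overlapped. None of these 3 calls held in each setting: of the 10 neutrophil markers 0 were called under RLE scaling, on library totals, among genes above background or without imiquimod 2, and 1 without Vaseline 2, and of the fibroblast markers 0 were called lower under RLE or upper-quartile scaling, on library totals, among genes above background, or without Vaseline 2, imiquimod 1 or imiquimod 2.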
